A study of Homo sapiens with 19 samples.

Results

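The cells described here are epithelial cells of human liver organoids that carried KRT7 transcripts but neither COL1A2 or COL3A1 collagen transcripts nor a hepatocyte-like amount of liver secretory transcripts. They were chosen cell by cell from 6 single-cell libraries. Cells with fewer than 500 genes or with over 20% of their counts from mitochondrial genes were dropped. A kept cell became a member when it held at least 2 UMIs of KRT7 and at least 1 of EPCAM, and 0 UMIs of COL1A2 and of COL3A1. UMIs are unique molecular identifiers, so each counts 1 captured RNA molecule. Cells were left out as hepatocyte-like when AFP, AMBP, AGT, FGB and SERPINA1 together reached 5 UMIs and 0.3% of the cell's UMIs. This left 484 members among 30066 kept cells, from 35448 deposited barcodes in these libraries and 138053 in the whole series. The levels of these 9 genes therefore describe the choice and support no result.

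The organoids were grown from wild-type W01 cells, an established human pluripotent stem cell line distributed by WiCell, and were kept on an orbital shaker. All 6 libraries were sampled on day 25, with 2 libraries in each of 3 groups: untreated, the control for OA (called the control below) and OA at 500 µM. The labels state 20 days of culture and then 5 days of treatment for shaker organoids. The OA dose stands in the sample titles and treatment labels, the protocol text does not mention OA, and no label spells the abbreviation out or says what the control received. No label says that replicates came from separate cultures, so p-values measure only the spread between these libraries, which may be technical. All organoids come from the same cell line, and each library pooled dissociated organoids.

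KRT7 is a type II keratin of simple and ductal epithelia, and in the adult liver it marks the cells that line bile ducts, while hepatocytes normally lack it. EPCAM is an adhesion protein on the surface of most simple epithelia. Organoids made from pluripotent cells pass through a gut-tube stage, so liver, bile duct, pancreatic and intestinal genes can be found side by side in them. Epithelial cells that take up fatty acids bind them with fatty acid-binding proteins, store them in droplets coated by perilipins, burn them in mitochondria and peroxisomes, or export them on apolipoproteins.

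The members were few in the untreated and control libraries and more numerous in the OA libraries. The untreated libraries held 63 and 18 members, the control libraries 42 and 38, and the OA libraries 159 and 164. As a share of kept cells the members made up 0.665% and 0.314% in the untreated libraries, with exact binomial 95% intervals of 0.511% to 0.850% and 0.186% to 0.497%. The control shares were 0.770% (0.555% to 1.04%) and 1.23% (0.870% to 1.68%). The OA shares were 5.15% (4.39% to 5.99%) and 5.09% (4.36% to 5.90%). Both OA libraries lay above all 4 others, and the groups did not overlap. The mean share was 5.12% ± 0.0416 (SD, n = 2) with OA and 0.999% ± 0.324 (SD, n = 2) in the control. The difference of 4.12 percentage points gave p = 0.3333 in a two-sided exact permutation test, the smallest value that 2 libraries against 2 allow. The control exceeded the untreated libraries by 0.509 percentage points (exact permutation p = 0.3333). These intervals cover counting error only.

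The share of collagen-positive cells, which the rule removes, differed between the groups too. Cells with at least 1 UMI of COL1A2 or COL3A1 made up 69.1% and 54.0% of kept untreated cells and 62.0% and 69.5% of control cells, against 7.54% and 5.65% with OA. The collagen criterion removed 521 and 539 cells with KRT7 and EPCAM in the control libraries and 119 and 67 in the OA libraries. Among cells with 0 collagen UMIs the members' share was 2.15% and 0.684% untreated, 2.03% and 4.03% in the control, and 5.57% and 5.39% with OA, a mean difference of 2.46 percentage points between OA and control. More cells of a type and fewer cells of the other types cannot be told apart in such shares. The part of free collagen RNA in the count of collagen-positive cells was not tested.

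Depth differed between libraries. The median UMI count per kept cell was 4250 and 2288 untreated, 5472.5 and 14124 in the control and 9689 and 7555 with OA, and a threshold of 2 KRT7 UMIs is met more often in a deeper cell. When each cell was thinned to 2000 UMIs before the rule was applied, leaving out shallower cells, the share was 0.406% and 0.0318% untreated (1 cell in the second library), 0.163% and 0.407% in the control, and 1.07% and 1.32% with OA. The OA libraries remained the highest, with a difference of 0.908 percentage points from the control. Thinning also loosens the collagen and hepatocyte criteria and tightens those for KRT7 and EPCAM, so these shares describe a different set. This set was smaller, with 29 and 36 cells with OA and 7 and 11 in the control.

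**Figure D1:**
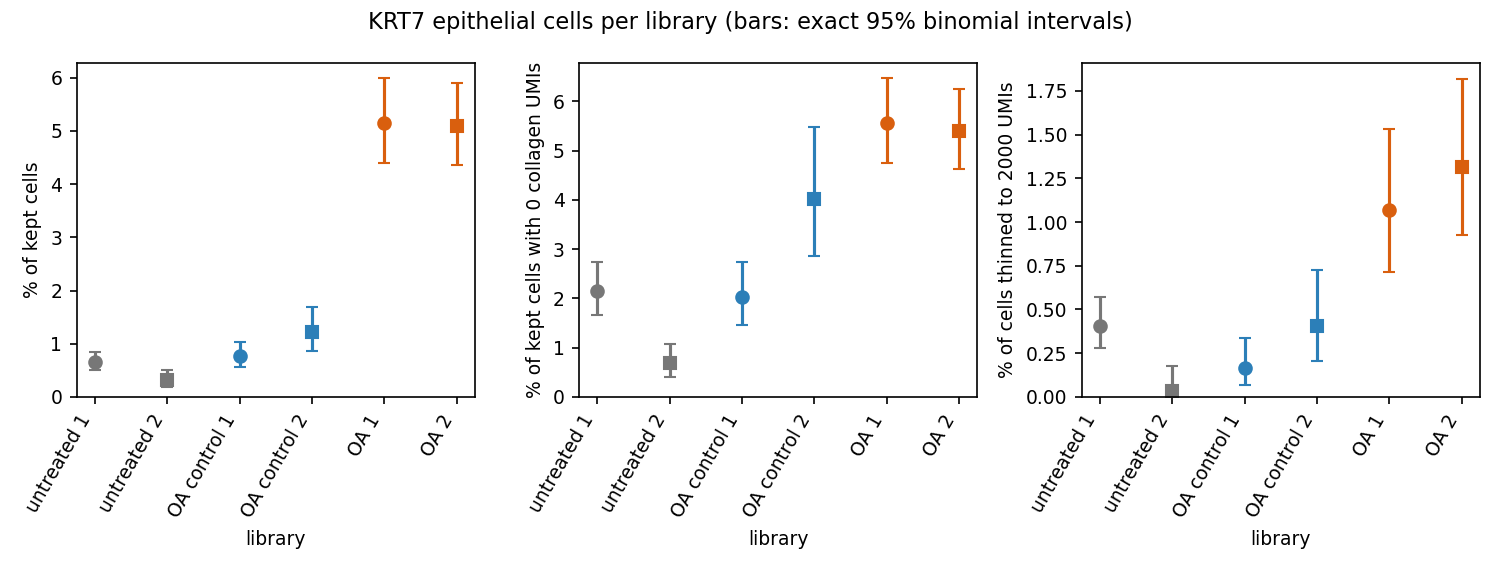
Share of KRT7 epithelial cells in each of the 6 libraries, as a percent of the cells in the denominator named on each vertical axis; points are libraries and bars are exact 95% binomial intervals. Of kept cells, the OA libraries sit at 5.15% and 5.09% and all others at or below 1.23%; of cells with 0 collagen UMIs, control replicate 2 reaches 4.03%.

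The rule draws lines through gradients of cells. Members with exactly 2 KRT7 UMIs numbered 19 and 8 untreated, 15 and 6 in the control, and 30 and 30 with OA. Just outside, 47, 27, 31, 14, 61 and 37 cells in the same order met every other criterion with 1 KRT7 UMI. The 5 hepatocyte genes took a median of 0.177% to 0.221% of a member's UMIs in the 6 libraries, just under the limit of 0.3%. Between 0.3% and 0.5%, 61 and 33 control cells and 144 and 116 OA cells lay just outside. Without the hepatocyte criterion the share would have been 9.64% and 9.60% in the control and 31.7% and 35.6% with OA.

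A member held a median of 17308 and 21934.5 UMIs in the control libraries and 21952 and 21491 with OA, but 6837 and 12567 in the untreated ones. Summed over members, the libraries held 533616 and 493952 UMIs untreated, 938579 and 867787 in the control, and 4915029 and 5993196 with OA, so levels in the OA libraries carry the least counting error. Mitochondrial counts took a median of 4.99% to 9.49% of a member's UMIs. The untreated libraries stood apart from each other: the second axis of a principal component analysis of the member sums, holding 28.1% of the variance, placed them at opposite ends, while the first axis (38.8%) separated OA from the control. In untreated replicate 2 the deepest of the 18 members held 113021 of the 493952 UMIs. Every CPM level given for the members of this library therefore leans on that cell. The part of that cell in the split between the untreated libraries was not tested. Pairs of libraries shared 4 to 20 cell barcodes, at most 0.426% of the smaller library.

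KRT7 itself was low and uneven. The members' summed KRT7 level in CPM (counts per 1000000 UMIs of the members) was 967 and 158 untreated, 270 and 335 in the control, and 283 and 338 with OA. Untreated replicate 1 was the highest and the control and OA libraries overlapped. A member held a median of 3 to 7.5 KRT7 UMIs, and the highest cell held 179, in OA replicate 2. In the remaining kept cells of the same libraries the KRT7 level was 125 to 240 CPM, so these cells too carried the transcript. Cells with at least 5 collagen UMIs and 0 EPCAM UMIs, which would not be taken for a simple epithelium, held 34.3 and 22.4 CPM untreated and 12.8 and 9.75 CPM in the control, but 349 and 271 CPM with OA. There the level was as high as in the members, in only 40 and 27 such cells. In OA replicate 1 such cells also held the keratins of stratified epithelia KRT6A (1788 CPM) and KRT17 (1461 CPM), against 95.1 and 52.3 CPM in OA replicate 2. In the control KRT6A lay at 48.2 and 60.6 CPM and KRT17 at 48.1 and 84.2 CPM in them. The OA cells are therefore not a plain non-epithelial background. The part of free RNA in the KRT7 counts of OA members was not tested.

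EPCAM lay at 1331 and 856 CPM untreated, 983 and 1005 CPM in the control, and 1702 and 1400 CPM with OA. In the other kept cells it lay at 554 to 722 CPM without OA and at 1953 and 1772 CPM with OA. With OA, the cells outside the set were therefore no poorer in EPCAM than the members.

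The members' most abundant named transcripts outside the nuclear RNA MALAT1 were those of the calcium-binding proteins S100A6 and S100A10, the ferritin chains FTH1 and FTL, the elongation factor EEF1A1 and the detoxifying enzyme GSTP1. Among genes with a mean of at least 100 CPM over the 6 libraries, the excess over all other kept cells of the same library was largest for CDX1, a homeobox factor of the intestinal epithelium, when genes were ordered by their smallest log2 ratio over the 6 libraries. CDX1 stood at 46.9 and 119 CPM untreated, 146 and 112 CPM in the control, and 158 and 160 CPM with OA, with log2 ratios to the other cells of 0.57 to 1.72. ETHE1, a mitochondrial sulfur dioxygenase, came next, then SERPINB1, an inhibitor of neutrophil proteases. The simple keratin KRT19 had ratios of 0.35 to 1.38. Since the cells were picked by expression, these ratios are descriptions without a test.

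KRT7 marks bile ducts in the liver, but the genes of the ductal list were present only in part. Of 20 ductal genes on the list, 19 had a row of their own. The bile duct hormone receptor SCTR and the water channel AQP1 had 0 UMIs in all 6 libraries. ONECUT1, a liver and biliary transcription factor, and PKHD1, the ciliary protein of polycystic kidney and liver disease, did not exceed 5.09 CPM. SPP1 (osteopontin) lay between 4.68 and 26.2 CPM, and the chloride channel CFTR between 12.2 and 40.4 CPM. With OA, of 14 ductal genes tested by edgeR as described below, 1 rose and 2 fell, beside 10% and 8.45% of all genes. The median log2 fold change was -0.28, and -0.43 to -0.05 without single OA or control libraries. DCDC2, a microtubule-binding protein of biliary cilia, rose (log2 2.12), and SPP1 (log2 -1.58) and the stem cell antigen PROM1 (log2 -1.33) fell. With single OA or control libraries left out, 0 or 1 ductal gene was called higher and 0 lower. Single cells held 11 of 15 and 16 of 19 SPP1 UMIs in the control; without the cell that held most, its level was 4.26 and 3.46 CPM in the control and 3.87 and 5.84 CPM with OA. Other genes of the list, which many epithelia express, were present in all 6 libraries: KRT19 (1559 to 3383 CPM), the surface protein CD24 (704.5 to 1677 CPM), the claudin CLDN4 (447 to 746 CPM), the annexin ANXA4 (212 to 393.5 CPM) and the transcription factor SOX9 (54.3 to 160 CPM). The matrix protease MMP7 varied from 2.02 to 441 CPM.

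Gut epithelial genes were present without OA as well. The intestinal homeobox gene CDX2 lay between 61.1 and 89.95 CPM in all 6 libraries. CDH17, an intestinal cadherin, lay between 150 and 314 CPM, AGR2, a disulfide isomerase of mucus-making cells, between 1164 and 2051 CPM, and the trefoil peptide TFF3 between 1003 and 4883 CPM. The ranges of these 4 genes in the OA libraries fell within or next to those of the others. The basal squamous factor TP63, the leukocyte genes PTPRC and CD14, the endothelial genes CDH5, TEK and ERG, and the neural crest gene SOX10 had 0 UMIs in every library. The members are therefore called KRT7 epithelial cells by their rule, without a cell type name.

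**Figure D2:**
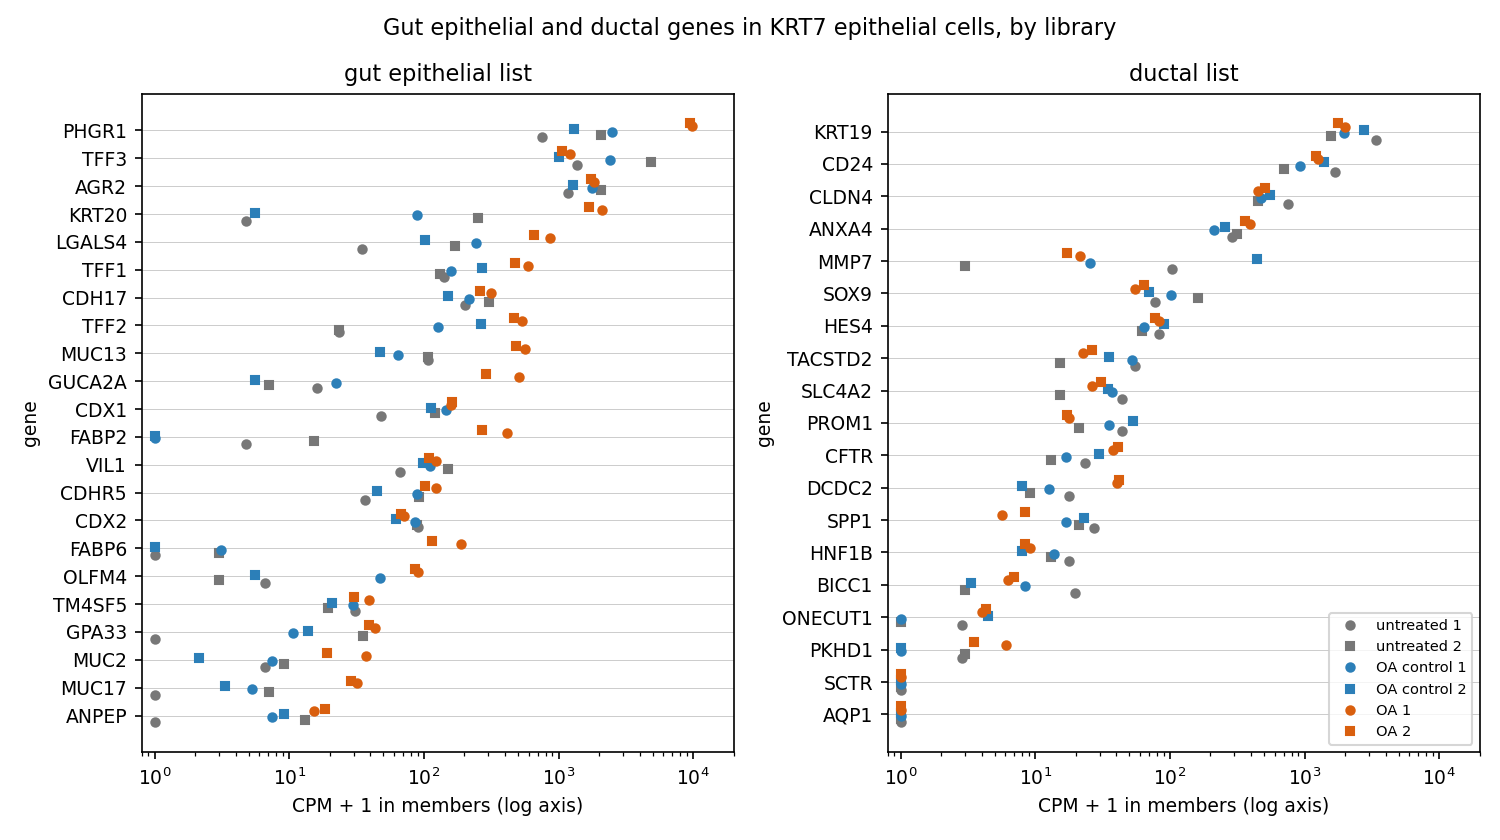
Levels of gut epithelial and ductal genes in KRT7 epithelial cells, as CPM + 1 on a log axis; each symbol is a library. Gut genes such as CDX2 (61.1 to 89.95 CPM) and AGR2 (1164 to 2051 CPM) are present in all 6 libraries, FABP2 and KRT20 separate OA from the control, and SCTR and AQP1 are at 0.

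The effect of OA was tested on UMI counts summed over the members of each library, with edgeR's quasi-likelihood test over the 3 groups and Benjamini-Hochberg adjustment. Of 8471 genes tested, 849 (10%) rose and 716 (8.45%) fell at an adjusted p under 0.05, 18.5% in all. The median log2 fold change over all genes was 0.00 (-0.0019). The number called depended on single libraries: it was 3052 and 3047 without untreated replicate 1 or 2, 82 and 16 without control replicate 1 or 2, and 76 and 128 without OA replicate 1 or 2. Counts by gene list are given with the list's median. FABP2, FABP6, APOA4, APOC3, ALB, IL7R, DHRS9 and PSCA held at most 7 UMIs in any library without OA. They passed the low-count filter through the OA group alone, so their calls are descriptions, and the list counts include such genes. For the gut, inflammation and junction lists no fall, and for the cell cycle list no rise, was called by edgeR; these counts were also 0 at an unadjusted p under 0.05 and by DESeq2. Of 62 genes named by rule and called, 7 were called in all 4 fits that leave out 1 OA or control library, 12 in 3, 8 in 2, 12 in 1 and 23 in 0. The 12 called in 1 fit were RBP2, KRT6A, CDC20, PKDCC, DCDC2, KRT23, S100P, PCNA, BIRC5, CCNB2, PLIN2 and SOD2. The 23 called in 0 were KRT20, IGFBP4, PRSS2, PROM1, SPP1, VTN, APOA2, PSCA, COL1A1, COL5A1, COL5A2, ACTA2, CD68, FADS1, FADS2, SC5D, ELOVL6, DDIT4, NQO1, TXNRD1, SLC7A11, CDH1 and DSG2. In summed counts, fewer cells that express a gene and less RNA per cell cannot be told apart.

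Both OA libraries lay above both control libraries for 32.9% of all genes tested and below them for 35.5%, 68.4% in all, so a lack of overlap sets no gene apart. The 12 largest rises named by rule held genes of fat absorption, of the gut surface and of immune signalling. FABP2 (chr4:119317250-119322138), the intestinal fatty acid-binding protein, had 0 UMIs in both control libraries and 410 and 269 CPM with OA. Set against a floor of 3 counts over the control group, FABP2 was at least 200.2-fold higher. It entered the test through the OA group alone, so its call adds no support. The other kept OA cells held more FABP2 than the members, at 1830 and 1231 CPM, against 14.3 and 7.56 CPM in the control. It was also low in the untreated libraries, at 3.75 and 14.2 CPM, and with OA 75 and 59 of the members (47.2% and 36.0%) held a UMI of it, against 7.5% and 11.1% of the shallower collagen-rich cells described next. Without single OA or control libraries the log2 fold change of FABP2 lay between 11.9 and 12.8, with 0 control UMIs in each fit.

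APOA4 (chr11:116820700-116823304), an apolipoprotein that enterocytes load onto chylomicrons, had 1 UMI in the control libraries together and 444 and 1063 CPM with OA. The ratio was 1417, with a counting interval of 254 to 55960. The OA libraries lay far above all others. Among OA members the level was uneven: per 10000 UMIs the median member held 0.41 and 0.38, and the mean was 2.995 and 8.246. The cell at the 90th percentile held 7.23 and 21.75. Of the OA members, 105 and 103 held a UMI of APOA4. Among the 40 and 27 collagen-rich EPCAM-free cells of the OA libraries, which should lack it, 27.5% and 37.0% held one, against 66.0% and 62.8% of the members, at median depths of 6316 and 5221 UMIs against 21950 and 21490. Other kept OA cells held 4579 and 4580 CPM and the collagen-rich ones 61.8 and 85.6 CPM, and the part of free RNA in the members' level was not tested. APOC3, an inhibitor of lipoprotein lipase, also had 1 control UMI and lay at 24.0 and 85.4 CPM with OA (ratio 104, 18.7 to 4127). Its level in the other kept OA cells was higher, at 1352 and 1019 CPM. FABP6, the ileal bile acid-binding protein, rose from 2 control UMIs to 186 and 114 CPM (ratio 132, 36.5 to 1093). Single cells held 400 of its 914 UMIs in OA replicate 1 and 437 of 683 in OA replicate 2. In the other kept OA cells FABP6 lay at 1413 and 66.7 CPM.

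KRT20 (chr17:40875889-40885242), the keratin of mature gut surface cells, lay at 3.75 and 249 CPM untreated, 88.4 and 4.61 CPM in the control and 2105 and 1675 CPM with OA. Both OA libraries were above all others. The log2 fold change was 5.30 ± 1.45 (SE; edgeR adjusted p = 0.0366). It was called in 0 of the 4 fits without 1 OA or control library (log2 4.37 to 8.82, adjusted p 0.101 to 0.224), and 1 cell held 68 of the 83 KRT20 UMIs of control replicate 1. RBP2, the cellular retinol-binding protein of enterocytes, rose from 59.7 and 18.4 to 1246 and 1149 CPM (log2 4.93 ± 0.98 SE, edgeR adjusted p = 0.0131), and was called in 1 of these 4 fits (adjusted p up to 0.153). GUCA2A, the gut peptide guanylin, rose from 21.3 and 4.61 to 508 and 290 CPM, with 1 cell holding 1544 of the 2498 UMIs in OA replicate 1; without that cell the OA level was 194 CPM. CEACAM7, an adhesion molecule of differentiated colon cells, rose from 2.13 and 25.4 to 547 and 521 CPM. DHRS9, a retinol and steroid dehydrogenase, rose from 2.13 and 3.46 to 126 and 91.8 CPM. The other kept OA cells held more RBP2 than the members (3891 and 2775 CPM). They held less CEACAM7 (240 and 320 CPM) and less DHRS9 (74.2 and 49.8 CPM). IL7R, the receptor chain for interleukin 7, had 3 control UMIs and lay at 63.1 and 44.6 CPM with OA (ratio 31.9, 10.8 to 155).

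Of the 22 gut epithelial genes tested, 10 rose and none fell, beside 10% and 8.45% of all genes, with a median log2 fold change of 1.60. The 10 were FABP2, FABP6, KRT20, PHGR1, GUCA2A, TFF1, TFF2 and the mucins MUC2, MUC13 and MUC17. Of these, FABP2 and FABP6 entered the test through the OA group alone. PHGR1, a small protein of the gut epithelium, went from 2497 and 1299 to 9729 and 9464 CPM (edgeR adjusted p = 0.0429). MUC13, a membrane mucin, went from 62.9 and 46.1 to 565 and 480.5 CPM (edgeR adjusted p = 0.00165). The transcription factors of the list did not pass the test: CDX1 had a log2 fold change of 0.33 ± 0.41 (SE) and CDX2 one of -0.06 ± 0.26 (SE). The summed level of the list was 8094 and 4781 CPM in the control and 19591 and 17599 CPM with OA. In the other kept cells it was 4620 and 2612 CPM in the control and 27976 and 23680 CPM with OA, so the level was also higher outside the members. These other cells were different mixtures. Collagen-positive cells made up 62.0% and 69.5% of kept control cells and 7.54% and 5.65% of kept OA cells. The part of this mixture in the difference was not tested. Without single OA or control libraries, 1 to 5 genes of the list were called.

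**Figure D3:**
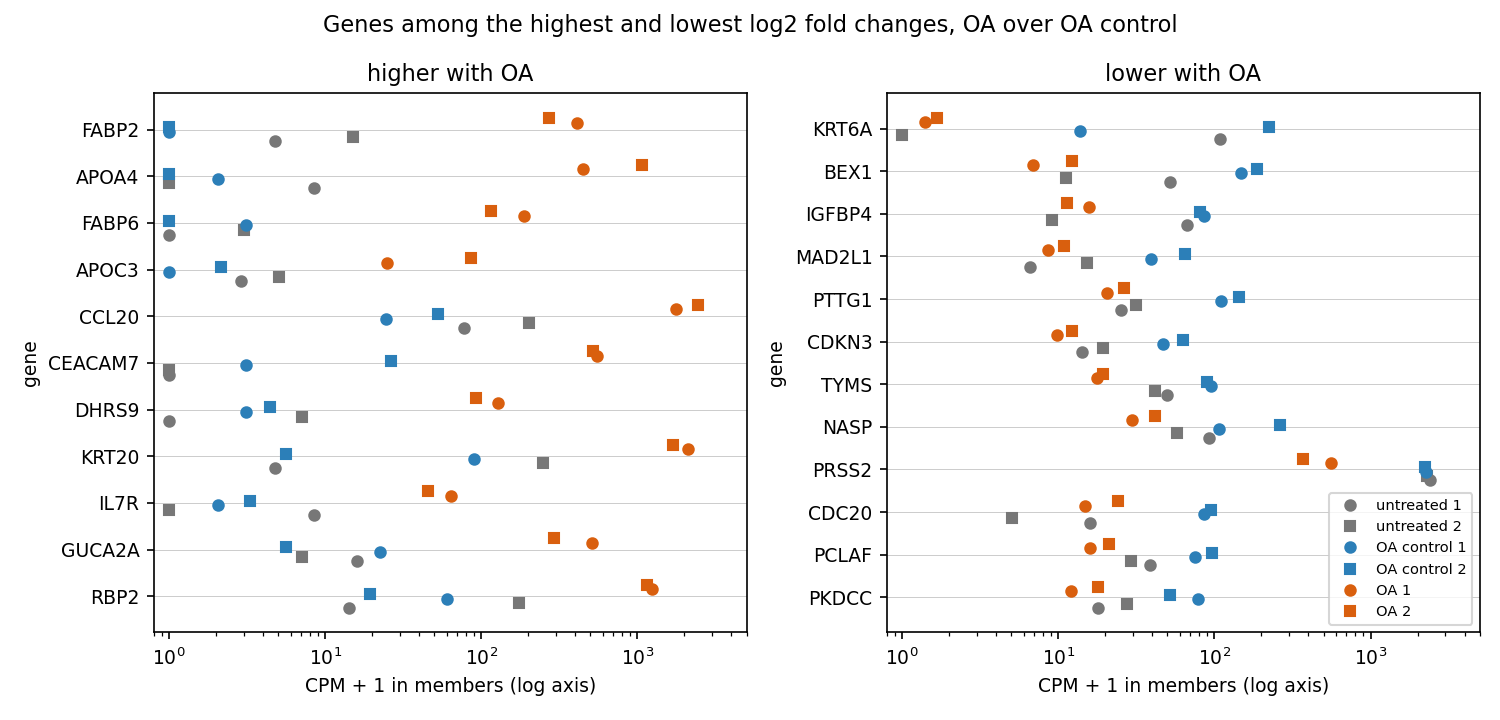
Levels in KRT7 epithelial cells of genes among the highest and lowest log2 fold changes between OA and its control, as CPM + 1 on a log axis; each symbol is a library. The OA libraries sit above every control library for the raised genes, such as CCL20 (1759 and 2427 CPM), and below them for the lowered genes, such as TYMS (16.7 and 18.4 CPM).

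Most tested genes of inflammatory signalling rose. CCL20 (chr2:227805739-227817564), a chemokine that draws dendritic cells and lymphocytes to mucosae, lay at 76.8 and 200.4 CPM untreated, 23.4 and 51.9 CPM in the control and 1759 and 2427 CPM with OA. Both OA libraries were above all others, and within the control 1 cell held 38 of the 45 UMIs of replicate 2. The log2 fold change was 5.87 ± 0.64 (SE; edgeR adjusted p = 0.00273), and it was called in 2 of the 4 fits without 1 OA or control library (adjusted p up to 0.073). CCL20 transcripts were found in 133 of 159 and 134 of 164 OA members and in 10 of 42 and 5 of 38 control members. Of the shallower collagen-rich EPCAM-free OA cells, 8 of 40 and 6 of 27 held a UMI of it. Among OA members the level varied widely: per 10000 UMIs the median cell held 6.68 and 5.65, and the cell at the 90th percentile 49.8 and 62.7.

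Several chemokines that attract neutrophils rose too. CXCL1 went from 13.9 and 26.5 to 196 and 261 CPM (log2 3.57 ± 0.33 SE, edgeR adjusted p = 0.00168). CXCL8 went from 13.9 and 50.7 to 114 and 171 CPM, and CXCL2 and CXCL3 also rose, although reads of the near-identical CXCL1, CXCL2 and CXCL3 may be shared between them. BIRC3, an inhibitor of apoptosis induced by NF-kB, went from 7.46 and 4.61 to 92.4 and 82.6 CPM (log2 3.87 ± 0.42 SE, edgeR adjusted p = 0.00273). The feedback inhibitors NFKBIA (log2 1.42) and TNFAIP3 (log2 2.06), the subunits NFKB1 (log2 1.83) and RELB (log2 1.21), and the mitochondrial dismutase SOD2 (log2 1.89) rose as well.

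In all, 15 of the 19 inflammation genes tested rose and none fell, beside 10% and 8.45% of all genes. Their median log2 fold change was 1.95. CCL2, the monocyte chemokine, CXCL5, NFKB2 and the early response gene IER3 did not pass the test. In untreated replicate 1 several of these genes were as high as with OA: CXCL2 lay at 114 CPM there against 135 and 116 CPM with OA, and NFKB1 at 59.97 against 34.8 and 37.9 CPM. The summed list level was 731 and 1102 CPM in the control and 4467 and 5224 CPM with OA, and 8432 and 8438 CPM in the other OA cells. Without single OA or control libraries between 0 and 4 genes of the list were called, while the list's median lay between 1.79 and 2.49 over all alternatives. The leukocyte genes PTPRC and CD14 were at 0 in all 6 libraries.

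The promoters of 3 of these chemokines each hold a match to the same motif. NF-kB is a transcription factor family, and the form of its motif searched here is 3 G, any 2 bases, 3 T and 2 C, or the reverse complement of these letters for the other strand. The last 150 bases before the start site are given 5′ to 3′ on the gene's strand (RefSeq, GRCh38.p14), with the match in capitals. They lie at chr2:227813692-227813841 (plus strand), chr4:73869243-73869392 (plus strand) and chr4:74038690-74038839 (minus strand).
CCL20: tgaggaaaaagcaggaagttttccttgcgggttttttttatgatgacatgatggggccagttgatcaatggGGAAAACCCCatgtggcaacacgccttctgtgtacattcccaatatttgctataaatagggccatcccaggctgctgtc
CXCL1: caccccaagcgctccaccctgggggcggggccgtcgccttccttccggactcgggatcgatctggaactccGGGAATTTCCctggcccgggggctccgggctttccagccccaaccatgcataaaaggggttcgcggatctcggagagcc
CXCL3: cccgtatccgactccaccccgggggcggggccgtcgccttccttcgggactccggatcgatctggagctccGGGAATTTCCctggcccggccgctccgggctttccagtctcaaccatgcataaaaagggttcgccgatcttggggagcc
In all 3 the match spans bases 79 to 70 before the start site and does not overlap the other motifs searched. The CCL20 match lies on the other strand, and those of CXCL1 and CXCL3 on the given strand. The CXCL1 and CXCL3 stretches are alike over most of their length, so their matches are not independent. In the 250 bases before the start, the motif was found in 7 of the 11 called inflammation genes that had a promoter in the table (63.6%: BIRC3, CCL20, CXCL1, CXCL2, CXCL3, NFKBIA and TNFAIP3), and in 9 of the 14 of the whole list. It was found in 387 of 22114 promoters (1.75%). The list holds inflammation genes, among them NF-kB subunits and feedback inhibitors, so a share above that of all promoters is no result of OA. The share was 64.3% over the whole list and 63.6% among the called genes. The called genes make up most of the list, so these shares cannot show whether the motif goes with the call. A match of letters is a description and not a binding site. The intestinal CDX motif TTTATNG, searched in the same way with CNATAAA for the other strand, was found in 1 of 7 called gut genes with a promoter (MUC2) and in 9.64% of all promoters.

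Some genes of lipid droplets and fatty acid oxidation rose in the members, 11 of 21 tested. PLIN2, the perilipin that coats droplets in most cells, lay at 217 and 237 CPM untreated, 195 and 194 CPM in the control and 829 and 710.5 CPM with OA. The 4 libraries without OA were alike and both OA libraries were higher, and the log2 difference was 2.02 ± 0.27 (SE; adjusted p = 0.00458 by edgeR). It was called in 1 of the 4 fits without 1 OA or control library (adjusted p up to 0.0804). The rise was spread over the cells: per 10000 UMIs the median member held 1.46 and 1.51 PLIN2 UMIs in the control and 7.84 and 5.92 with OA. The perilipins PLIN4 and PLIN5 did not exceed 0.610 CPM.

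CREB3L3, a membrane-bound transcription factor of liver and gut lipid metabolism, went from 11.7 and 13.8 to 145 and 154 CPM (log2 3.59 ± 0.28 SE, edgeR adjusted p = 0.00165). ACSL5, which activates fatty acids by coupling them to coenzyme A, went from 12.8 and 25.4 to 170.5 and 148 CPM (log2 3.12 ± 0.33 SE, edgeR adjusted p = 0.00238). CPT1A, which passes fatty acids into mitochondria, went from 10.7 and 12.7 to 77.5 and 64.9 CPM. DGAT2, the last enzyme of triglyceride synthesis, and the droplet-fusing protein CIDEC rose by 2.39 and 2.505 on the log2 scale.

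Of 21 genes tested in this list 11 rose and 1 fell, beside 10% and 8.45% of all genes, with a median log2 fold change of 1.30. PDK4, CPT2, HADHA and ETFDH were also among those called. Without single OA or control libraries 1 to 4 genes of the list were called higher. HILPDA, an inhibitor of droplet lipolysis that is also induced by low oxygen, went the other way, from 19.2 and 34.6 to 6.92 and 4.17 CPM (log2 -2.23 ± 0.38 SE, edgeR adjusted p = 0.00880). FABP1, the liver fatty acid-binding protein, varied from 195 to 4023 CPM between the untreated libraries. It lay at 2216 and 1783 CPM in the control and 7569 and 6808 CPM with OA, and did not pass the test (edgeR adjusted p = 0.248).

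Lipid synthesis showed no common direction. Of 20 genes tested, SC5D and ELOVL6 rose and FADS1 and FADS2 fell, shares near the 10% and 8.45% over all genes, and the list's median log2 fold change was 0.11, or -0.02 without control replicate 2. The desaturases FADS1 and FADS2, which make polyunsaturated fatty acids, went from 79.9 and 58.8 to 15.1 and 19.4 CPM and from 65.0 and 66.8 to 16.7 and 24.9 CPM. In the 4 fits without 1 OA or control library 0 genes of the list were called. ELOVL6 elongates saturated and monounsaturated fatty acids and SC5D is a late enzyme of cholesterol synthesis. SC5D lay at 50.6 and 64.8 CPM untreated, level with 60.02 and 64.4 CPM with OA. The regulators SREBF1 (log2 -0.18 ± 0.45 SE) and SREBF2 (log2 0.04 ± 0.29 SE) did not pass the test.

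Liver secretory genes that the rule did not use moved in part with OA. Of 11 tested, 4 rose and 1 fell, beside 10% and 8.45% of all genes, with a median log2 fold change of 0.63. The median was 1.76 without control replicate 1 and 0.65 to 0.71 without any other OA or control library. With single OA or control libraries left out, 0 to 3 were called higher and 0 lower. APOA2, an apolipoprotein of high-density lipoprotein, went from 1279 and 694 to 6000 and 7211 CPM. APOB, the scaffold of chylomicrons and very low-density lipoprotein, went from 29.8 and 15.0 to 252 and 256 CPM. ALB went from 1 control UMI to 29.3 and 38.4 CPM, and APOC3 is given above. ALB and APOC3 entered the test through the OA group alone. VTN, the plasma protein vitronectin, went from 342 and 266 to 89.9 and 93.8 CPM, within its untreated levels of 185.5 and 79.0 CPM, and was called in 0 of the 4 fits without 1 OA or control library. AHSG was at 0 everywhere, and HNF4A, the hepatocyte and gut nuclear receptor, lay at 60.02 and 60.07 CPM with OA against 78.8 and 42.6 CPM. Of the hepatocyte genes in the rule, AFP lay at 88.4 and 49.6 CPM in the control and 481 and 440 CPM with OA, while SERPINA1 lay at 1676 and 1609 and at 1177 and 1201 CPM.

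Of 23 junction and surface genes 3 rose, a share near the 10% over all genes: the adhesion molecule CEACAM1, from 32.0 and 19.6 to 325 and 264.5 CPM (log2 3.53), E-cadherin (CDH1, log2 1.27) and desmoglein 2 (DSG2, log2 1.10). None fell, and the median was 0.59. CDH1 lay at 517 and 283 CPM untreated, on either side of its OA levels of 466 and 364 CPM. DSG2 lay at 449.8 and 322 CPM untreated, against 369.5 and 313.5 CPM with OA. Neither was called in any of the 4 fits without 1 OA or control library. Of 8 antioxidant and metallothionein genes 3 rose, beside 10% of all genes, and the median log2 fold change over the 8 was 1.20. This median was 1.10 to 1.92 without single OA or control libraries. NQO1, a quinone reductase, rose from 127 and 68.0 to 381 and 410.3 CPM (log2 2.03), as did the thioredoxin reductase TXNRD1 (log2 1.36) and the cystine transporter SLC7A11 (log2 1.497). In each fit without 1 OA or control library 0 genes of the list were called, and with library totals or the replicate block 1 was. TXNRD1 lay at 127 and 60.7 CPM untreated, on either side of its OA levels of 105 and 121 CPM. Of 15 stress response genes 1 was called by edgeR and 0 by DESeq2: DDIT4, an mTOR inhibitor induced by stress, fell (log2 -1.02), a call lost in each fit without 1 OA or control library. Beside this, 8.45% of all genes tested were called lower. At an unadjusted p under 0.05, 1 stress response gene rose and 2 fell. The chaperone HSPA5 (log2 0.30) and the stress factor ATF4 (log2 -0.71) did not pass the test. Of 14 TGF-beta and injury genes 0 were called by edgeR or by DESeq2, and 3 had an unadjusted p under 0.05. Their median was -0.64, or 0.03 without control replicate 2.

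**Figure D4:**
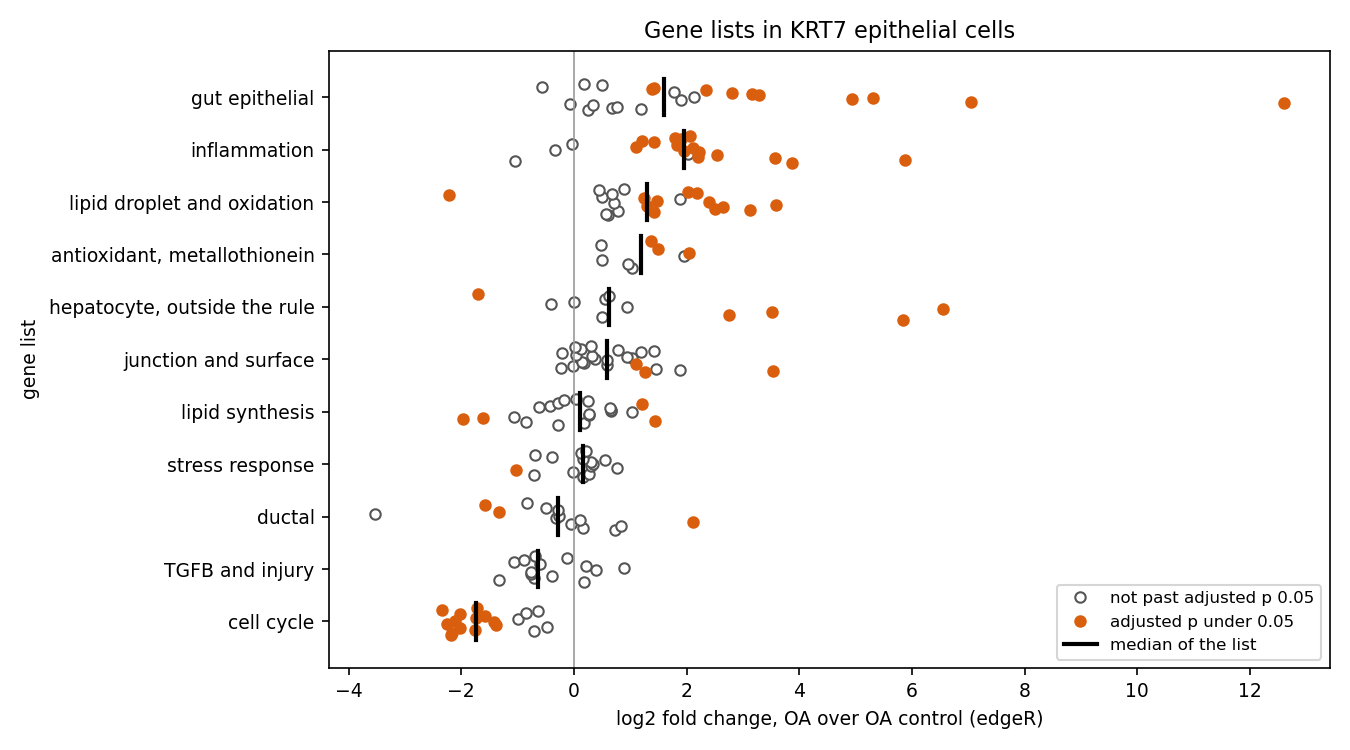
Log2 fold change between OA and its control (edgeR) of every tested gene in each gene list; filled points have an adjusted p under 0.05 and the black bar is the list's median. The inflammation (median 1.95) and gut epithelial (1.60) lists lie mostly above 0 and the cell cycle list (median -1.73) lies wholly below it.

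Squamous and urothelial genes went both ways. KRT23, the calcium-binding protein S100P, the stem cell antigen PSCA and the uroplakin UPK1B rose, while KRT17 and KRT6A fell. These were of 9 tested with a median log2 fold change of 1.79, beside 10% and 8.45% of all genes called higher and lower. PSCA had 0 UMIs in every library without OA and 14.5 and 13.0 CPM with OA, so it entered the test through the OA group alone. Without single OA or control libraries 0 to 2 genes of the list were called higher and 1 to 2 lower. S100P went from 137 and 138 to 517 and 751 CPM (log2 2.24 ± 0.35 SE, edgeR adjusted p = 0.00637). KRT6A, a keratin of stressed stratified epithelia with near-identical copies, had the lowest log2 fold change among the genes named by rule (-7.49 ± 1.496 SE). It lay at 12.8 and 222 CPM in the control and 0.407 and 0.667 CPM with OA, but 1 cell held 189 of the 193 UMIs of control replicate 2. Without that cell its level there was 4.61 CPM. For KRT17, single cells held 20 of 28 and 15 of 22 UMIs in the control. Without the cell that held most, its level was 8.52 and 8.07 CPM in the control and 0.610 and 0.667 CPM with OA.

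The summed levels of markers of other cells were also read. The members' rule left out cells with COL1A2 or COL3A1 only, and 85 of 159 and 81 of 164 OA members held a UMI of COL5A2. The mesenchymal genes outside the rule came to 273 and 312 CPM in the control and 312 and 252 CPM with OA over 16 genes. The median log2 fold change of the 9 tested was 0.13. Of these 9, 2 were called higher and 2 lower, beside 10% and 8.45% of all genes. COL1A1 (17.1 and 34.6 to 3.26 and 3.00 CPM) and ACTA2, smooth muscle actin, fell, and COL5A1 and COL5A2 rose, but COL5A1 had a log2 fold change of -0.15 when the hepatocyte criterion was left out. Without single OA or control libraries 0 genes of the list were called. The 8 immune genes came to 245 to 570.0 CPM over the 6 libraries, of which lysozyme (LYZ), also made by secretory gut epithelium, held 217 to 547 CPM. LYZ did not pass the test (log2 -0.51), and the lysosomal protein CD68, also found outside macrophages, rose (log2 1.58). The 8 neural genes came to 93.1 to 380.4 CPM, of which the tubulin TUBB3 held 79.0 to 296 CPM. Of the endothelial and neural genes 1 and 2 were tested and 0 were called by edgeR, with 0 and 1 at an unadjusted p under 0.05. The part of RNA from other cells in these levels was not tested. The raised genes were also read in the 40 and 27 collagen-rich EPCAM-free cells of the OA libraries. In OA replicate 1 these cells also held the keratins KRT6A (1788 CPM) and KRT17 (1461 CPM). The part of squamous cells in their levels was not tested. Of 56 list genes that rose, 25 had a mean level there under 10% of that in the members, 21 lay between 10% and the members' level, and 10 reached or exceeded it. Among the first, CCL20 lay at 43.6 and 61.8 CPM, FABP2 at 10.9 and 14.3 CPM, and KRT20 at 14.5 and 14.3 CPM. Among the last were NFKB1, NFKBIA, RELB, TNFAIP2, TNFAIP3, ICAM1, SOD2 (102 and 385 CPM), DSG2 (472 and 357 CPM), COL5A1 and COL5A2. BIRC3 lay between, at 83.6 and 52.3 CPM, as did PLIN2, at 142 and 628 CPM.

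Most of the cell division genes tested fell with OA. Of 18 tested 13 fell and none rose, beside 8.45% and 10% of all genes. All 18 had a negative log2 fold change, with a median of -1.73. Without single OA or control libraries 1 to 4 genes of the list were called, and the median lay between -1.88 and -0.53 over all alternatives. The value of -0.53 came from leaving out the deepest 10% of each library's members, where 3 of the 15 genes tested were called. TYMS (chr18:657653-673578), the enzyme that makes thymidylate for DNA synthesis, lay at 48.7 and 40.5 CPM untreated, 93.8 and 88.7 CPM in the control and 16.7 and 18.4 CPM with OA (log2 -2.34 ± 0.21 SE, edgeR adjusted p = 0.00165). The OA libraries were below all others, and the control libraries were the highest. BIRC5 (survivin), a mitotic protein, went from 68.2 and 63.4 to 10.99 and 17.4 CPM (log2 -2.16 ± 0.27 SE, edgeR adjusted p = 0.00392). CCNB2, a mitotic cyclin, went from 47.9 and 53.01 to 9.77 and 14.0 CPM (log2 -2.02 ± 0.26 SE, edgeR adjusted p = 0.00406), but its untreated levels were 22.5 and 18.2 CPM.

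Among all genes, the largest falls named by rule also held the mitotic genes MAD2L1 (log2 -2.47), PTTG1 (log2 -2.43), CDKN3 (log2 -2.37) and CDC20 (log2 -2.22), the histone chaperone NASP (log2 -2.33) and the replication factor PCLAF (log2 -2.20). CDC20 lay at 15.0 and 4.05 CPM untreated, 85.2 and 94.5 CPM in the control and 13.8 and 23.0 CPM with OA. Here the control libraries stood out and the OA libraries resembled the untreated ones. MAD2L1 lay at 5.62 and 14.2 CPM untreated and 7.53 and 9.84 CPM with OA, against 38.4 and 63.4 CPM in the control. PTTG1 lay at 24.4 and 30.4, 19.5 and 25.4, and 109.7 and 143 CPM in the same order. Of the 62 called genes named by rule, 14 had overlapping untreated and OA ranges: BEX1, BIRC5, CDC20, CDH1, COL5A2, DDIT4, DSG2, IGFBP4, KRT6A, MAD2L1, PTTG1, SC5D, TXNRD1 and VTN. MKI67, TOP2A, CDK1, CCNA2 and TPX2 did not pass the test; MKI67 lay at 36.2 and 68.0 CPM in the control and 18.7 and 30.7 CPM with OA. BEX1, a small neural and endocrine protein, IGFBP4, a binding protein of insulin-like growth factors, and PKDCC, a secreted tyrosine kinase, fell by 4.21, 2.68 and 2.16 on the log2 scale. BEX1 lay at 50.6 and 10.1 CPM untreated against 5.90 and 11.2 CPM with OA, and IGFBP4 at 65.6 and 8.10 against 14.7 and 10.3 CPM, so both sets of ranges overlap. IGFBP4 was called in 0 of the 4 fits without 1 OA or control library. PKDCC lay at 16.9 and 26.3 CPM untreated, near its OA levels of 10.99 and 16.9 CPM. PRSS2, a pancreatic trypsinogen with near-identical copies, went from 2248 and 2229 to 559 and 366 CPM.

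Many mitotic promoters hold CCAAT boxes, the letters bound by NF-Y. For CDC20 and CCNB2 the last 150 bases before the start are shown as above, with CCAAT in capitals. Matches on the other strand, which read ATTGG, were searched as well. They lie at chr1:43358831-43358980 and chr15:59104996-59105145, both on the plus strand.
CDC20: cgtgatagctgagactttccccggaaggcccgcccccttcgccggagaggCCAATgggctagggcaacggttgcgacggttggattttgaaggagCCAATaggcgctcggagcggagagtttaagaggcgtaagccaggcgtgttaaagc
CCNB2: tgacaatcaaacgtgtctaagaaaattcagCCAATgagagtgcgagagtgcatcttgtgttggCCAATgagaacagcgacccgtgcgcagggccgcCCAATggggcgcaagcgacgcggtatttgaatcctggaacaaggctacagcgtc
CDC20 has matches at bases 100 to 96 and 55 to 51 before the start, and CCNB2 at 120 to 116, 87 to 83 and 54 to 50, with another at 244 to 240 outside the stretch shown. In the 250 bases searched, 5 of 7 called cell cycle genes with a promoter in the table had a match (CCNB1, CCNB2, CENPF, MCM3 and NUSAP1), and 8 of 10 of the whole list, against 33.4% of all promoters. The 3 genes of the list with a promoter that were not called, MKI67, TOP2A and CCNA2, all had a match. No match overlapped another motif searched.

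The share of members with cell division transcripts was less clear than their summed level. After thinning to 2000 UMIs, members with at least 3 UMIs over the 18 genes made up 11.9% and 16.7% untreated, 14.6% and 28.9% in the control and 7.55% and 14.2% with OA. Each share leaves out 0 to 4 shallower cells. The OA libraries lay below both control libraries by a mean of 10.9 percentage points (7.55% and 14.2% against 14.6% and 28.9%; exact permutation p = 0.3333). OA replicate 2 and control replicate 1 were nearly level, and without control replicate 2 the difference was -3.76 percentage points. Thinned to 1000 UMIs the difference was -1.21 percentage points (exact permutation p = 1). Unthinned, the shares were 59.5% and 57.9% in the control and 32.7% and 42.1% with OA. Hepatocyte-like cells of the same libraries, thinned to 2000 UMIs, gave 6.49% and 14.2% untreated, 15.4% and 12.3% in the control and 5.18% and 7.11% with OA. Untreated replicate 1 lay between the OA libraries.

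Whether OA acted differently on these cells than on hepatocyte-like cells was tested with an interaction term on 12 sums, a sum of each cell set in each library, with the library as a block. Hepatocyte-like cells met the liver gene criterion with 0 collagen UMIs and numbered 12079, or 1742 and 654 in the control libraries and 2353 and 2667 in the OA libraries. AFP, among the 5 genes of that criterion, itself differed with OA, at 462 and 510 CPM in the other kept cells of the control libraries and 6392 and 5027 CPM in those of the OA libraries. The split of the cells thus uses a gene that moved with OA, and its part in the differences was not tested. Of 15054 genes tested, 133 (0.883%) differed in their OA effect: 49 (0.325%) had a higher value in the KRT7 epithelial cells and 84 (0.558%) a lower value. On simulated data this test made more false calls than its nominal rate, so the count may be too high. Of the 18 cell cycle genes 0 differed at an adjusted p under 0.05 and 2 at an unadjusted one, by edgeR, and the list's median difference was 0.10. The count was 64 without control replicate 1 and 61 without OA replicate 1, and 131 and 130 without control or OA replicate 2. Of the 21 inflammation genes 1 differed, CCL20, whose log2 change with OA was larger in the KRT7 epithelial cells. With OA its level was lower in the members (1759 and 2427 CPM) than in the other kept cells (3757 and 4022 CPM). In the control CCL20 lay at 23.4 and 51.9 CPM in the members, also below the other kept cells (127 and 94.96 CPM). Of the 24 droplet and oxidation genes 1 differed, DGAT1, with a lower value in the KRT7 epithelial cells. A gene that misses the threshold is not shown to respond alike in both cell sets.

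By number of genes, the gut epithelial list held the most differences, but the shorter list of liver genes below held a similar share. MUC2 had a higher OA effect in the KRT7 epithelial cells, and CDHR5, MUC13, PHGR1, TFF1 and TFF2 a lower one, of 22 tested. TFF2, the gastric trefoil peptide, went from 126 and 265 to 537 and 462 CPM in the members and from 112 and 163 to 2758 and 3501 CPM in hepatocyte-like cells. The difference of the log2 effects was -3.11 ± 0.24 (SE, edgeR adjusted p = 3.41e-11). A single cell held 215 of the 230 TFF2 UMIs of control replicate 2, and the difference stayed called with each of the 4 libraries left out in turn, from -3.35 to -2.82. Liver genes APOA1, CPS1, RBP4 and VTN also had a lower effect in the members, of 14 tested.

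NPW, GAL and VIM fell in hepatocyte-like cells and did not pass the test in the members. NPW, the neuropeptide W precursor, lay at 60.7 and 78.4 CPM in control members and 74.5 and 64.2 CPM with OA, while in hepatocyte-like cells it went from 283 and 409 to 84.7 and 102 CPM (difference 1.86 ± 0.22 SE, edgeR adjusted p = 1.17e-06). GAL, the peptide galanin, went from 51.1 and 53.01 to 41.3 and 26.5 CPM in the members and from 130 and 208 to 20.0 and 18.7 CPM in hepatocyte-like cells. VIM, the intermediate filament vimentin, lay at 211 and 557 and then 288 and 163 CPM in the members, and went from 943 and 1073 to 146 and 151 CPM in hepatocyte-like cells. Mesenchymal cells are rich in VIM, and the part of their free RNA in these levels was not tested. CXCL14, an epithelial chemokine, lay at 93.8 and 87.6 CPM in control members and 182 and 230 CPM with OA, against 146 and 120 and then 54.9 and 39.4 CPM in hepatocyte-like cells. The difference passed the test, but neither its value in the members nor that in hepatocyte-like cells did alone (edgeR adjusted p = 0.104 and 0.148). Single cells held 79 of 88 and 51 of 76 of the control members' CXCL14 UMIs.

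**Figure D5:**
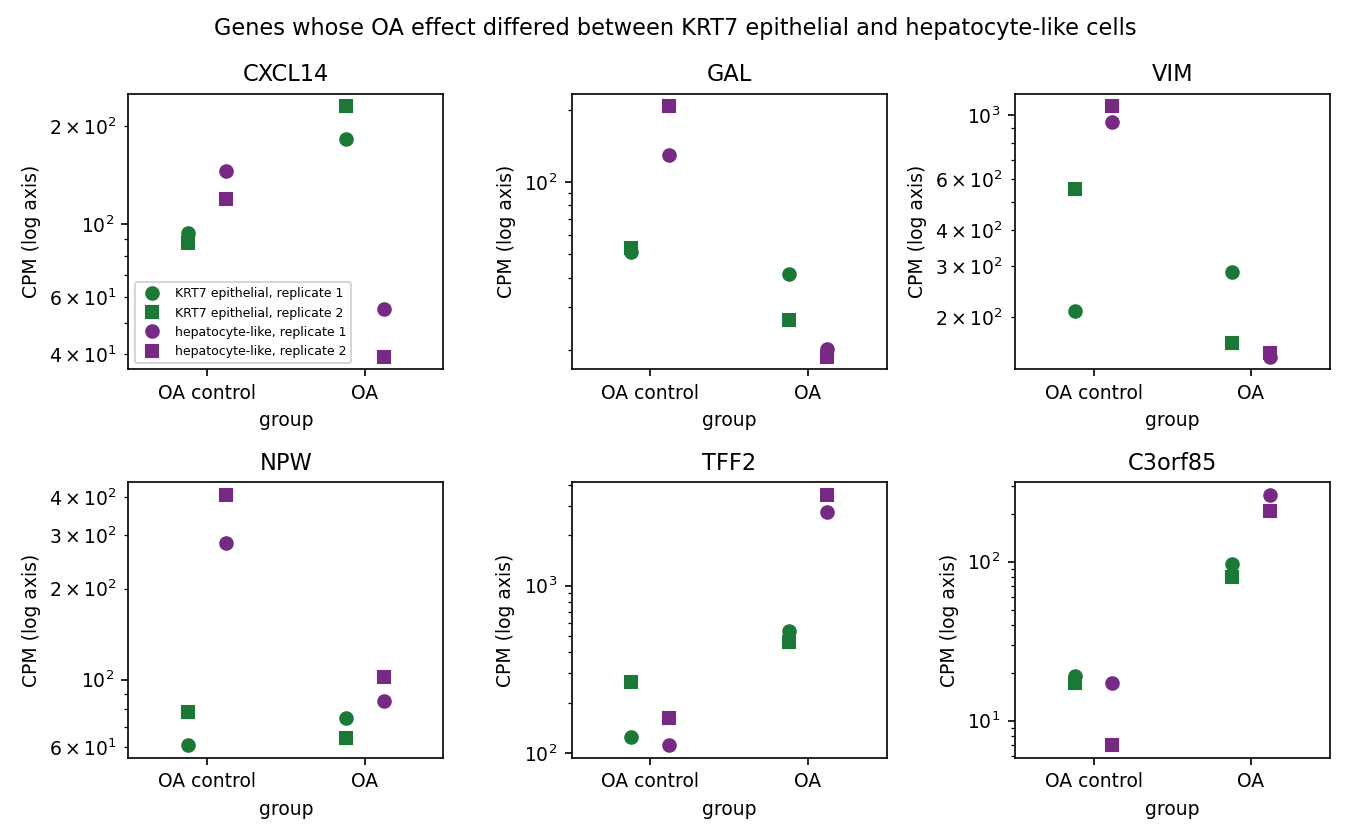
CPM on a log axis in control and OA libraries of KRT7 epithelial and hepatocyte-like cells, for genes whose OA effect differed between the cell sets; symbols are replicates. TFF2 reaches 2758 and 3501 CPM in hepatocyte-like cells with OA against 537 and 462 CPM in the members, and NPW falls to 84.7 and 102 CPM in hepatocyte-like cells while the members stay between 60.7 and 78.4 CPM.

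The control and the untreated libraries differed in few genes by the same edgeR fit. Of 8471 tested, 2 (0.0236%) were called and both fell in the control, although 1719 had an unadjusted p under 0.05 and DESeq2 called 194. The linker histone HIST1H1E, whose family has near-identical members, lay at 367 and 239 CPM untreated, 57.5 and 58.8 CPM in the control and 205 and 214 CPM with OA (control against untreated log2 -2.32 ± 0.23 SE, edgeR adjusted p = 0.0376). PDCD4, an inhibitor of translation, lay at 221 and 194 CPM untreated, 45.8 and 53.01 CPM in the control and 95.2 and 84.8 CPM with OA (log2 -2.04 ± 0.23 SE, edgeR adjusted p = 0.0448). For both genes the control libraries were the lowest of the 6. Of the cell cycle genes above, CDC20 had a log2 change of 3.26 ± 0.47 (SE) and PTTG1 one of 2.24 ± 0.31 (SE) from untreated to control, and neither passed the test (edgeR adjusted p = 0.0795 and 0.0758). Without untreated replicate 1 or 2 the count called was 394 and 904, and without any control or OA library it was 0. This comparison shares the control libraries with the comparison of OA.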

How the data were processed

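Droplet libraries were made with the 10x Genomics single cell 3′ v3 kit. The authors deposited raw UMI counts per gene (36601) and barcode. The matrix headers name Cell Ranger 6.0.2, and the submitters' processing notes list Cell Ranger 3.0.2, bcl2fastq, Scanpy and GRCh38. No column was left unmapped (0). Members were gated cell by cell and their counts summed per library. The sums were fitted with edgeR 4.0.16 (TMM, filterByExpr, glmQLFTest, 3 residual degrees of freedom) in R 4.3.3. DESeq2 1.42.0 was an alternative. CPM are member counts per 1000000 member UMIs. Positions are from GENCODE 44 (GRCh38), and 103 of 104 named genes had one.

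Members and gene lists were chosen with earlier results of these data known. Genes named are the 12 highest and 12 lowest log2 fold changes with at least 50 CPM and no overlap, up to 4 called genes per list, the 20 leading profile genes, and 6 interaction genes per direction. Genes on chromosome 8, ribosomal and mitochondrial genes were left out of the ranking.

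Scrublet (scanpy 1.11.5) marked 0% to 0.679% of cells, too few to be used, so doublets were kept; removing the highest scores (2.75% to 8.07% of cells) was an alternative. Both tests were tested on simulated data, where the share of false calls exceeded the nominal rate in both and was highest in the interaction test. Cells were filtered at the same limits in all libraries. A few genes that the naming rule or the lists hold are not reported here.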

Additional observations from a re-analysis of the deposited data

Results flagged for a closer look

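The OA effect differed between KRT7 epithelial and hepatocyte-like cells by the interaction test for 12 genes named by rule, given as log2 differences, KRT7 epithelial minus hepatocyte-like, from edgeR. The higher values were CXCL14 2.67, GAL 2.43, VIM 2.05, TUBA1A 1.87, IGFBP7 1.86 and NPW 1.86. The lower values were FDCSP -9.16, REG3A -6.13, KRT6A -5.19, TFF2 -3.11, C3orf85 -2.05 and SLPI -1.97. All 101 FDCSP UMIs among the members of control replicate 1 came from 1 cell, and the other OA and control members had 0. REG3A had 93 of 98 UMIs and KRT6A 189 of 193 in 1 cell of control replicate 2. With each OA and control library left out in turn, CXCL14, GAL, NPW, TFF2 and C3orf85 stayed called in all 4 fits. VIM, TUBA1A, FDCSP, REG3A and SLPI stayed called in 3 of 4, KRT6A in 2 and IGFBP7 in 1. SLPI, a protease inhibitor of mucosal secretions, lay at 23.4 and 17.3 CPM in control members and 30.7 and 46.2 CPM with OA, against 10.9 and 5.98 and then 52.6 and 70.0 CPM in hepatocyte-like cells. C3orf85 went from 19.2 and 17.3 to 96.9 and 79.6 CPM in the members and from 17.2 and 6.99 to 265 and 209 CPM in hepatocyte-like cells.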

How the results depend on the processing

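The share difference between OA and control kept its direction in every alternative run (0.908 to 24.0 percentage points). Without single libraries it was 3.89 to 4.35, that of control over untreated 0.280 to 0.738, and the cell cycle share difference -18.1 to -3.76 percentage points. With 2 libraries a group no share can pass the test. The replicate numbers did not pair the samples (correlations of deviations 0.009, 0.110 and -0.251); with the replicate block, 825 genes were called for OA and 0 for control against untreated.

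For OA the count of 1565 became 826 with library totals (404 higher, 422 lower), 2425 with no low-count filter, 3286 with only the 2 groups, 820 without the deepest 10% of members, 253 at 5 or more KRT7 UMIs, 5743 without the hepatocyte criterion and 953 with DESeq2. Single libraries left out gave 16 to 3052. For control against untreated the count of 2 became 0 with library totals, only the 2 groups, collagen up to 0.1% or 5 KRT7 UMIs, 1 without high doublet scores or the deepest members, 527 with no filter, 268 with 1000 genes and 10% mitochondrial counts, 439 without the hepatocyte criterion and 194 with DESeq2. Single libraries left out gave 0 to 904. The 133 interaction genes became 241 with no filter and 61 to 131 without single libraries. The cause was not tested.

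Reversed medians were ductal 0.12 (no filter), 0.11 (collagen up to 0.1%) and 0.0755 (no hepatocyte criterion); squamous -0.97 (collagen); mesenchymal -0.70 (no filter), -0.22 (1000 genes), -1.16 (collagen) and -1.73 (no hepatocyte criterion); lipid synthesis -0.0636 (deepest out), and -0.0219 to 0.291 without single libraries; stress -0.0872 to 0.314 and TGF-beta -0.625 to 0.0291 without single libraries (lowest without control replicate 1 for stress, highest without control replicate 2 for TGF-beta). COL5A1 reversed to -0.15 without the hepatocyte criterion. Of the other gene results outside single-library fits 724 kept their call and 70 lost it. In fits without single libraries 258 kept it and 173 lost it. The untreated and control libraries hold 18 to 63 members each, against 159 and 164 with OA.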
